A study of Mus musculus with 36 samples.

Results

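The MYC transcription factors, their partner MAX, the D-type cyclins and the kinases that these cyclins activate were followed in stromal and dendritic cells sorted from the mouse thymus. The group holds 9 genes (Myc, Mycn, Mycl, Max, Ccnd1, Ccnd2, Ccnd3, Cdk4 and Cdk6) of 18193 genes represented on the arrays. Each gene was read from a probe set that the platform annotation gives to that symbol alone, and where a gene had several, from the one with the highest mean over the 36 arrays. All 9 were among the 14495 genes tested, which had a value above the pooled median of all values (log2 5.66) in at least 2 arrays. The rule that picked the probe sets used no difference between populations or ages. The members themselves were chosen with earlier results of these data known.

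Levels were measured on Affymetrix mouse arrays, as log2 values deposited by the authors. The cells came from thymi of male wild-type C57BL/6J mice aged 1, 3 or 6 months, and no genotype or treatment differed between groups. The epithelium of the thymus was sorted into cells of the cortex (cTEC) and cells of the medulla, the medullary ones split by CD80 and MHC-II into high (mTEChi) and low (mTEClo). Dendritic cells (DC) were split into Sirpa+ and Sirpa- cells, and fibroblasts made the last of the 6 populations. Each population had 2 arrays at each age, so 6 arrays per population, 12 per age and 18 groups. Per sample the labels give 1 mouse, but the study's design text speaks of 2 mice per age, so the same animals may stand behind several populations. The p-values therefore measure the spread between these samples, which may be technical. Each array measured many sorted cells together, and in such bulk samples fewer cells of a type and less RNA per cell cannot be told apart.

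MYC, MYCN and MYCL are basic helix-loop-helix leucine zipper proteins that bind DNA as dimers with MAX, preferably at the E-box CACGTG, and raise the transcription of genes for ribosome assembly, nucleotide synthesis and growth. The MXD proteins compete with them for MAX and repress. Growth signals raise the D cyclins, which activate CDK4 and CDK6; these kinases phosphorylate RB and so release E2F factors, while INK4 proteins block the kinases. In mice, transgenes that raise MYC or cyclin D1 in thymic epithelium enlarge the thymus, Mycl is known for its expression in dendritic cells, and Ccnd3 and Cdk6 are needed for the expansion of immature thymocytes.

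The promoter letters of 3 members are shown because they carry letters read by the pathway's own factors, the E-box of MYC with MAX and the E2F site. RefSeq promoter windows on GRCm38.p6, taken from 250 bases before the start site up to it, were given for 6 of the 9 members, and the windows of Mycl, Max and Ccnd3 held neither motif. Capitals mark CACGTG in the Cdk4 and Cdk6 sequences and the E2F letters TTTGGCGC in that of Mycn. Both strands were searched for CACGTG and for either TTTCCCGC or TTTGGCGC, and the matches shown do not overlap. CACGTG reads the same on both strands.
Cdk4, chr10:127063285-127063534, plus strand: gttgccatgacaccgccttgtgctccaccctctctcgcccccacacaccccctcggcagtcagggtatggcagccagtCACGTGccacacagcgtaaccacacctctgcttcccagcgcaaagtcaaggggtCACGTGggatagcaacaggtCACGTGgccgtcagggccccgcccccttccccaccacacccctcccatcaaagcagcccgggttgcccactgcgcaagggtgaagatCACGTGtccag
Cdk6, chr5:3343643-3343708, plus strand: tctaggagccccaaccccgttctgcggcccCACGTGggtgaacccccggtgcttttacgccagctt
Mycn, chr12:12941967-12942049, minus strand: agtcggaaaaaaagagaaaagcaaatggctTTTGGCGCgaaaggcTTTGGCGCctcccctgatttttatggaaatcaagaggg
The Cdk4 window is printed whole and holds 4 E-boxes, at 172, 118, 98 and 11 bases before the start. At least 1 CACGTG was found in 6.02% of the 32851 promoter windows of the table, and at least 4 in 0.0213% of them. The Cdk6 stretch holds 1, at 220 bases before the start. Mycn, itself a known E2F target, holds 2 copies of TTTGGCGC, at 183 and 168 bases before the start, where at least 1 match to the E2F letters was found in 1.3% of windows and at least 2 in 0.0274%. A match describes letters and is not a measurement of binding.

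The arrays matched their labels in most respects. Each of the 36 arrays was closest to another array of its own population, replicates correlated at 0.949 to 0.994, and array medians lay between 5.61 and 5.75. Psmb11, the cortical proteasome subunit, averaged 10.96 in cTEC. Aire, the medullary regulator of self-antigen expression, averaged 11.19 in mTEChi and 7.59 in mTEClo. Of the other medullary markers, Fezf2 (11.54) and Cd80 (8.83) were also highest in mTEChi. The keratins Krt5 and Krt14 ran the other way, at 10.85 and 10.10 in mTEChi, 11.48 and 10.38 in cTEC, and 12.71 and 11.88 in mTEClo. Xcr1, Batf3 and Itgae, taken as markers of Sirpa- DC, averaged 9.20, 10.54 and 10.75 there and 4.62, 10.18 and 9.66 in Sirpa+ DC. All 4 fibroblast markers were above the pooled median in all 6 fibroblast arrays. Among them, Pdgfrb averaged 12.43 in fibroblasts and 9.95 in mTEChi, and Col3a1 12.96 in fibroblasts and 9.62 in mTEClo. The fibroblast arrays also carried thymocyte markers: 13 of 13 were above the pooled median in all 6 arrays, with a mean of 10.43 (8.97 to 11.20), against 7.98 in cTEC (11 of 13 markers) and between 6.23 and 7.54 in the other populations.

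The population accounted for most of the variation of every member. It took 91.7% of the sum of squares for Ccnd3, 88.6% for Mycl, 85% for Cdk6 and 78.3% for Max, and 55% for Cdk4, the lowest share of the 9. Differences between the 2 arrays of a group took 2.94% for Ccnd3 and 18.5% for Mycn. In the comparisons of populations below, a gene is called where limma's adjusted p (Benjamini-Hochberg over all 14495 genes) is under 0.05 and the difference is at least 2-fold, a log2 difference of 1.

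**Figure D1:**
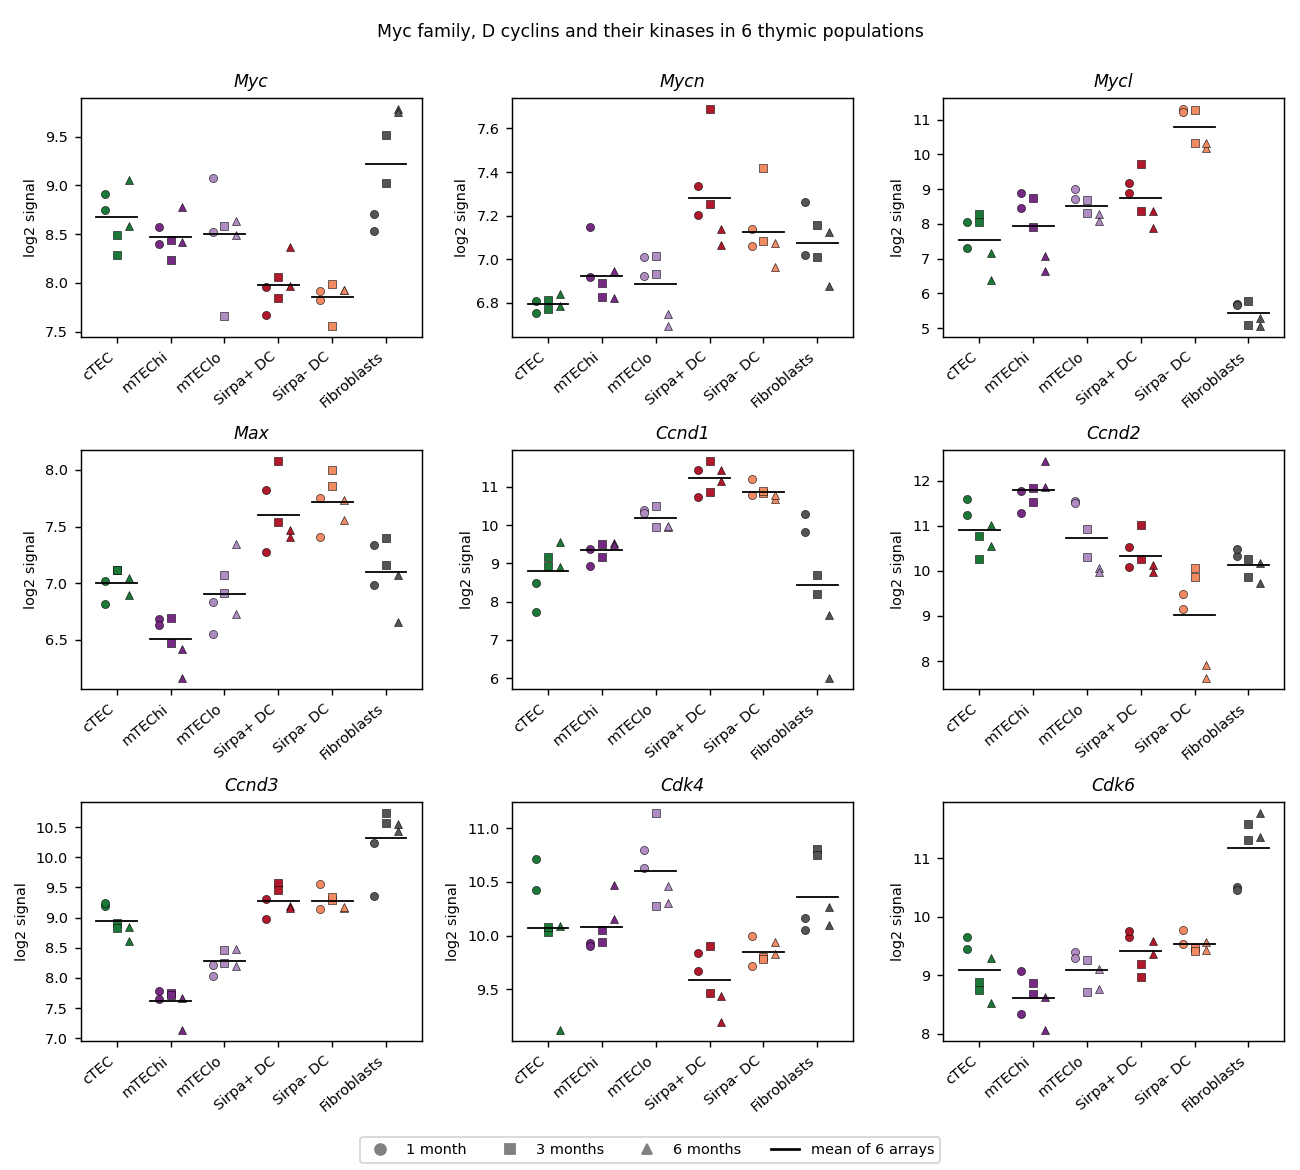
Log2 level of each member in the 36 arrays, by population (6 arrays each); the marker shape gives the age and the line the mean of 6. Mycl was highest in Sirpa- DC (10.19 to 11.31) and lowest in fibroblasts (5.06 to 5.78), and Ccnd1 in fibroblasts spread from 6.00 to 10.29.

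Among the MYC factors, Mycl separated the populations most widely. Its level in the 6 Sirpa- DC arrays was 10.19 at the lowest, 10.78 at the median and 11.31 at the highest, above all 30 other arrays. In fibroblasts it was 5.06, 5.48 and 5.78 at the same points, below all 30 others, and 3 of those 6 arrays were above the pooled median. The other populations lay between, with 7.87 to 9.74 in Sirpa+ DC, 8.08 to 9.01 in mTEClo, 6.63 to 8.89 in mTEChi and 6.38 to 8.29 in cTEC. Sirpa- DC exceeded the mean of the other 5 populations by 3.14 ± 0.17 (log2, SE), or 8.81-fold, with limma's adjusted p = 2.03e-14. In fibroblasts Mycl was lower than the mean of the other 5, with a log2 difference of -3.27 ± 0.17 (SE), or 9.68-fold (adjusted p = 1.26e-14). The thymocyte marker mean was highest in the fibroblast arrays, and adjusted for it the fibroblast difference was -1.74 ± 0.68 (SE, limma's adjusted p = 0.126). Since this mean separates the fibroblast arrays from the others, the SE was larger than the 0.17 without it. The part of thymocyte RNA in the difference was not tested.

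Down the order of Mycl levels, 3 of the 5 steps between neighbouring populations passed an adjusted p under 0.05: Sirpa- DC over Sirpa+ DC, mTEClo over mTEChi (adjusted p = 0.0298) and cTEC over fibroblasts by 2.11 (adjusted p = 6.63e-09). The steps from Sirpa+ DC to mTEClo and from mTEChi to cTEC did not. The arrays of the 2 dendritic populations did not overlap. Sirpa+ DC were lower than Sirpa- DC, with a log2 difference of -2.04 ± 0.22 (SE, n = 6 each), or 4.12-fold (limma's adjusted p = 6.81e-08). Of all genes, 5.37% were called between these 2 populations, the smallest share of the 10 population comparisons, and of the members 2 of 9 were.

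Myc itself spanned a narrower range. The 6 fibroblast arrays had 8.53 at the lowest, 9.27 at the median and 9.78 at the highest, and 3 of them were above all other arrays. The lowest levels were in the dendritic cells, at 7.67 to 8.37 in Sirpa+ DC and 7.56 to 7.99 in Sirpa- DC. No population reached a 2-fold difference from the other 5: fibroblasts came nearest with 0.92 ± 0.11 (log2, SE), or 1.90-fold, at limma's adjusted p = 9.92e-08. In Sirpa- DC the difference was -0.71 ± 0.11 (SE, adjusted p = 5.42e-06) and in Sirpa+ DC it was -0.57. The 3 epithelial populations averaged 8.47 to 8.68 and none of the steps between them passed the test. At 1 month, however, the Myc mean was 8.62 in fibroblasts, 8.83 in cTEC and 8.80 in mTEClo. The lead of fibroblasts was seen at 3 months (9.27) and at 6 months (9.77). Over the 36 arrays Myc correlated with the thymocyte marker mean at 0.584, and the part of thymocyte RNA in the fibroblast level was not tested.

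Mycn stayed within a band of 6.80 ± 0.03 (cTEC) to 7.28 ± 0.22 (Sirpa+ DC; SD, n = 6 each), and none of its 5 neighbouring steps passed an adjusted p under 0.05. Its 3 probe sets disagreed. Over the 18 group means the other 2 correlated with the chosen set at -0.323 and -0.174, and those sets were above the pooled median in 15 and 14 of the 36 arrays. Its values are therefore uncertain. Max, a partner of the MYC and MXD proteins, was higher in the dendritic cells, at 7.60 ± 0.30 in Sirpa+ DC and 7.72 ± 0.21 in Sirpa- DC, and lowest in mTEChi at 6.51 ± 0.20 (SD, n = 6 each). These differences from the other 5 populations were 0.55, 0.69 and -0.75 in that order, each past the adjusted p and none 2-fold.

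**Figure D2:**
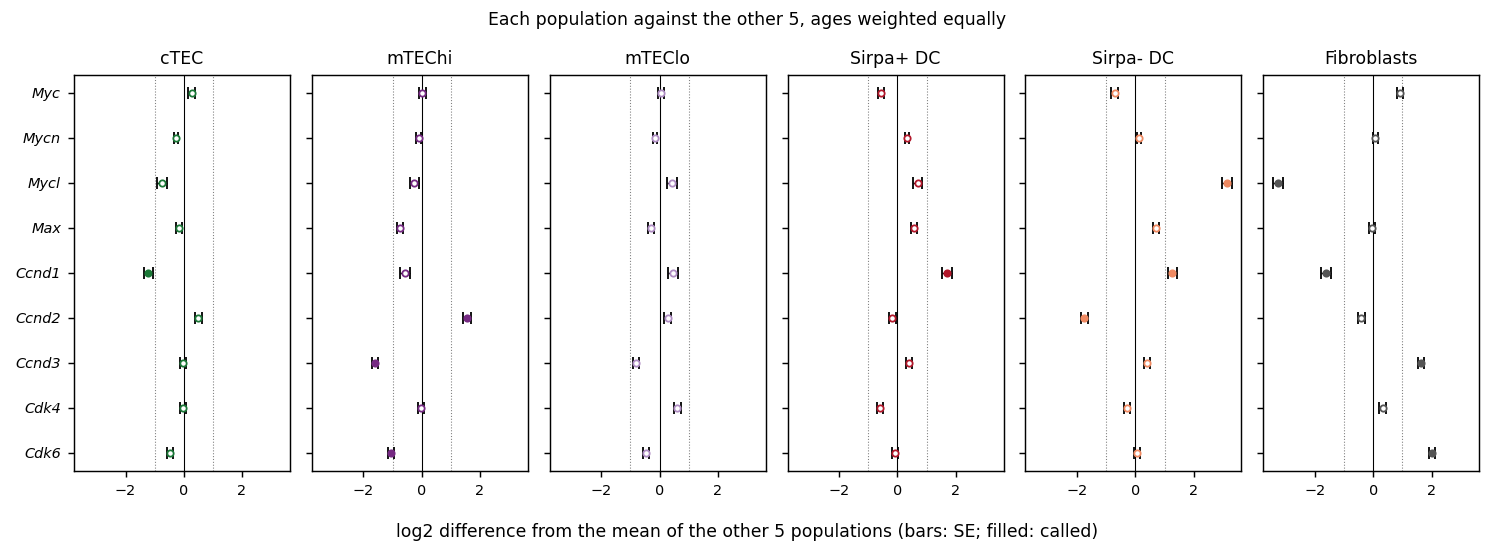
Log2 difference of each member in each population from the mean of the other 5 (bars, SE; dotted lines, 2-fold; filled points, called). The calls were 1 in cTEC, 3 in mTEChi, 0 in mTEClo, 1 in Sirpa+ DC, 3 in Sirpa- DC and 4 in fibroblasts.

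Over the 9 members, 1 was called in cTEC, 3 in mTEChi, 0 in mTEClo, 1 in Sirpa+ DC, 3 in Sirpa- DC and 4 in fibroblasts, each against the other 5 populations. Of all 14495 genes, 16.1%, 19.2%, 14.8%, 16.9%, 19.2% and 18.4% were called in those same comparisons. Read against those shares, the counts of 1 are near the background, and the counts of 3 and 4 exceed it by 1 or 2 genes. In mTEClo, where limma called none at 2-fold, 6 members had an adjusted p under 0.05 at any fold and 8 an unadjusted p under 0.05. Without the fold threshold such differences were common: over all 15 pairs of populations, 56.8% of the tests of a gene between 2 populations had an adjusted p under 0.05.

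Averaged over ages, each D cyclin was highest in a different kind of cell. Ccnd2 led in mTEChi, Ccnd1 in the dendritic cells and Ccnd3 in the fibroblast arrays. At 1 month, however, the Ccnd2 means were 11.52 in mTEChi, 11.52 in mTEClo and 11.41 in cTEC. The lead of mTEChi was seen at 3 months (11.67, against 10.61 in mTEClo) and at 6 months (12.15, against 10.01). For Ccnd2, the 6 mTEChi arrays had 11.27 at the lowest, 11.80 at the median and 12.44 at the highest, and 4 of them were above all other arrays. Sirpa- DC had the lowest levels, at 7.62, 9.31 and 10.07, with 4 of 6 below all other arrays. Ccnd2 in mTEChi exceeded the other 5 by 1.56 ± 0.12 (log2, SE), or 2.95-fold (limma's adjusted p = 3.53e-11). In Sirpa- DC the difference was -1.76 ± 0.12 (SE, adjusted p = 4.08e-12). The direction of both held in all 7 probe sets for Ccnd2, with 1.27 to 1.82 in mTEChi.

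Between the 2 dendritic populations Ccnd2 ran opposite to Mycl. Its mean was 10.33 ± 0.38 for Sirpa+ DC and 9.02 ± 1.02 for Sirpa- DC (SD, n = 6 each), a log2 difference of 1.31 ± 0.16 (SE), or 2.48-fold, with limma's adjusted p = 5.85e-07. Ccnd1 and Ccnd3 did not pass the test between them. For Ccnd1 the difference was 0.35 (adjusted p = 0.305, 95% interval -0.10 to 0.80), and for Ccnd3 it was 0.00 (adjusted p = 0.997, interval -0.26 to 0.26). Macrophage markers also differed, with a mean of 10.46 (9.97 to 10.97) in Sirpa+ DC and 8.15 (7.15 to 8.85) in Sirpa- DC, and their part in these differences was not tested.

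Ccnd1, the cyclin through which many growth factor signals reach CDK4, was high in both dendritic populations. Its lowest, median and highest values were 10.73, 11.29 and 11.68 in Sirpa+ DC and 10.69, 10.81 and 11.21 in Sirpa- DC. It exceeded the other 5 populations by 1.69 ± 0.17 in Sirpa+ DC (log2, SE; limma's adjusted p = 3.04e-09) and by 1.27 ± 0.17 in Sirpa- DC (adjusted p = 3.49e-07). It was lower in cTEC, with -1.21 ± 0.17 (SE, 2.32-fold, adjusted p = 8.54e-07), where the 6 arrays had 7.74 to 9.56. Within epithelium it followed the order mTEClo (9.95 to 10.49), mTEChi (8.94 to 9.54) and cTEC, and both steps passed the test, with adjusted p = 0.00181 and 0.0344. Without the 6 fibroblast arrays, a setting chosen after seeing the data, the Sirpa- DC difference was 0.98 and thus just under 2-fold.

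Ccnd1 in fibroblasts was not 1 level but a spread that followed age. The lowest, median and highest of the 6 arrays were 6.00, 8.45 and 10.29, a range wider than in any other population. Their mean lay below the other 5 by a log2 difference of -1.64 ± 0.17 (SE, limma's adjusted p = 5.29e-09). With the thymocyte marker mean as a covariate this difference was -0.39 ± 0.71 (SE, limma's adjusted p = 0.815), again with a larger SE.

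Ccnd3 was lowest in the medullary epithelium. The 6 mTEChi arrays had 7.14 at the lowest, 7.69 at the median and 7.78 at the highest, below all 30 other arrays. Fibroblasts had 9.36, 10.49 and 10.73, and 5 of 6 were above all other arrays. Against the other 5 populations, Ccnd3 differed by -1.60 ± 0.10 in mTEChi (log2, SE; 3.03-fold, limma's adjusted p = 1.99e-13) and by 1.64 ± 0.10 in fibroblasts (adjusted p = 1.94e-13). The order of levels was fibroblasts, Sirpa+ DC, Sirpa- DC, cTEC, mTEClo and mTEChi, and 4 of its 5 steps passed the test, all but that between the 2 dendritic populations. Adjusted for the thymocyte mean, the fibroblast difference was 0.86 ± 0.41 (SE, limma's adjusted p = 0.213), again with a larger SE.

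Of the 2 kinases that D cyclins activate, Cdk6 was called in 2 populations and Cdk4 in none. Cdk6 in fibroblasts was 10.46 at the lowest, 11.33 at the median and 11.77 at the highest, above all 30 other arrays, and the difference from the other 5 was 2.02 ± 0.11 (log2, SE), or 4.04-fold (limma's adjusted p = 5.84e-14). It was called under all 47 alternatives run, the thymocyte covariate among them (adjusted p = 0.0321). In mTEChi the 6 arrays had 8.06, 8.66 and 9.08, a difference of -1.05 ± 0.11 (SE, 2.07-fold, adjusted p = 9.56e-09). That call lies just past 2-fold: it was -0.76 with the mean of all Cdk6 probe sets, -0.94 after quantile normalization, -0.93 with the thymocyte covariate and -0.67 without the fibroblast arrays, and it also fell under 2-fold without the second 1 month (-0.93) or the second 6 month mTEChi array (-0.95).

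Cdk4 averaged 9.59 ± 0.27 in Sirpa+ DC at the lowest and 10.60 ± 0.33 in mTEClo at the highest (SD, n = 6 each). None of the 5 steps in its order of levels passed the test. Against the other 5 populations mTEClo differed by 0.61 ± 0.11 (log2, SE; limma's adjusted p = 3.92e-05) and Sirpa+ DC by -0.61, both under 2-fold. Across the 36 arrays, taken within populations, the level of Cdk4 correlated with the mean of the proliferation markers at 0.643, which is a description over arrays that share animals and normalization.

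**Figure D3:**
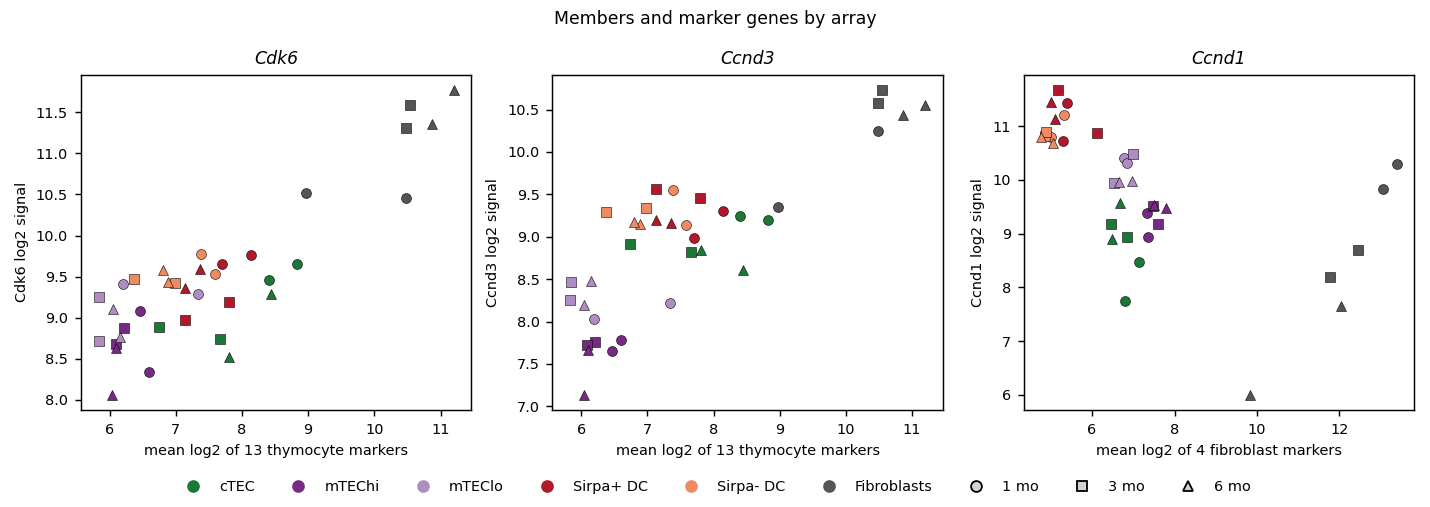
Level of Cdk6 and Ccnd3 against the mean of 13 thymocyte markers, and of Ccnd1 against the mean of 4 fibroblast markers, 1 point per array (log2 on both axes). The fibroblast arrays hold the highest thymocyte marker means, at 8.97 to 11.20.

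Cdk6 and Ccnd3, a kinase and cyclin pair, followed each other and the thymocyte markers. Over the 18 group means they correlated at 0.879, the highest value of the 36 pairs of members. Over the 36 arrays the thymocyte mean correlated with Cdk6 at 0.868 and with Ccnd3 at 0.833, and within populations at 0.584 and 0.423. The mean of the proliferation markers correlated with Cdk6 at 0.553 and with Ccnd3 at 0.5 over the 36 arrays, and within populations at 0.631 and 0.439. The points share arrays, animals and normalization, so these values are descriptions. The part of thymocyte RNA in the fibroblast levels was not tested beyond the covariate values given above.

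Inside the thymic epithelium, mTEChi and mTEClo differed in Ccnd2 when the ages were averaged. Over all ages Ccnd2 averaged 11.78 ± 0.39 in mTEChi and 10.72 ± 0.71 in mTEClo (SD, n = 6 each). The difference was 1.06 ± 0.16 (log2, SE, limma's adjusted p = 3.24e-06). At 1 month the means were alike, at 11.52 in mTEChi and 11.52 in mTEClo. They were 11.67 and 10.61 at 3 months, and 12.15 and 10.01 at 6 months. The difference at single ages was not tested. Ccnd2 was the 1 of 9 members called over all ages, against 19.6% of all genes. Without the second 3 month mTEClo array, the first 1 month mTEChi array or the second 6 month mTEChi array the difference was 0.96, 0.98 or 0.97 and no longer 2-fold. Ccnd1 (-0.85 ± 0.22, adjusted p = 0.00181) and Ccnd3 (-0.65 ± 0.13, adjusted p = 8.6e-05) were lower in mTEChi, under 2-fold but with no overlap between the 6 arrays of each.

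cTEC against the mean of both medullary populations gave 0 of 9 calls by limma, against 13.6% of all genes, with 5 members at an adjusted p under 0.05 at any fold and 6 at an unadjusted p under 0.05. Ccnd3 came nearest, higher in cTEC by 0.99 ± 0.11 (log2, SE; adjusted p = 2.82e-08), with no overlap of the arrays. The count was 1 under quantile normalization, equal array medians or, as a covariate, the difference between 3′ and 5′ control probes, a sign of RNA integrity, and it reached 2 without the second 3 month cTEC array. Ccnd1 differed by -0.96 ± 0.19 (SE, adjusted p = 0.000121).

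Averaged over its populations, epithelium, 18 arrays against the 12 of dendritic cells, had less Mycl and Ccnd1 and more Ccnd2. The log2 differences were -1.75 ± 0.14 for Mycl (SE, limma's adjusted p = 2.33e-11), -1.60 ± 0.14 for Ccnd1 (adjusted p = 1.27e-10) and 1.46 ± 0.10 for Ccnd2 (adjusted p = 1.86e-12). These 3 of 9 calls compare with 24.5% of all genes. The epithelial and dendritic arrays did not overlap for Ccnd1. They did for Mycl and Ccnd2, where Sirpa- DC stood furthest from epithelium and Sirpa+ DC lay near mTEClo. Mycl averaged 8.73 in Sirpa+ DC and 8.52 in mTEClo, a step that did not pass the test (limma's adjusted p = 0.4). In the same order Ccnd2 averaged 10.33 and 10.72 over all ages, and 10.05 and 10.01 at 6 months. All 9 members had an adjusted p under 0.05 at any fold, among them Ccnd3 (just under 2-fold, adjusted p = 3.05e-11), Max (-0.85 ± 0.08) and Myc (0.63 ± 0.09).

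Age was tested inside each population, with 2 arrays at each age and a call at limma's adjusted p under 0.05 without a fold threshold. Between 3 and 1 months, members changed in fibroblasts: Ccnd1 fell, and Ccnd3 and Cdk6 rose, 3 of 9 against 20.4% of all genes. In cTEC, mTEClo, mTEChi, Sirpa+ DC and Sirpa- DC limma called 0 members at this age, against 5.40%, 1.77%, 0%, 0.331% and 0.0345% of all genes. At an unadjusted p under 0.05 those 5 populations had 4, 2, 0, 1 and 1 members. The nearest in cTEC were Ccnd2 (-0.89, adjusted p = 0.06), Cdk6 (-0.74, adjusted p = 0.0862) and Ccnd1 (0.94, adjusted p = 0.153).

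**Figure D4:**
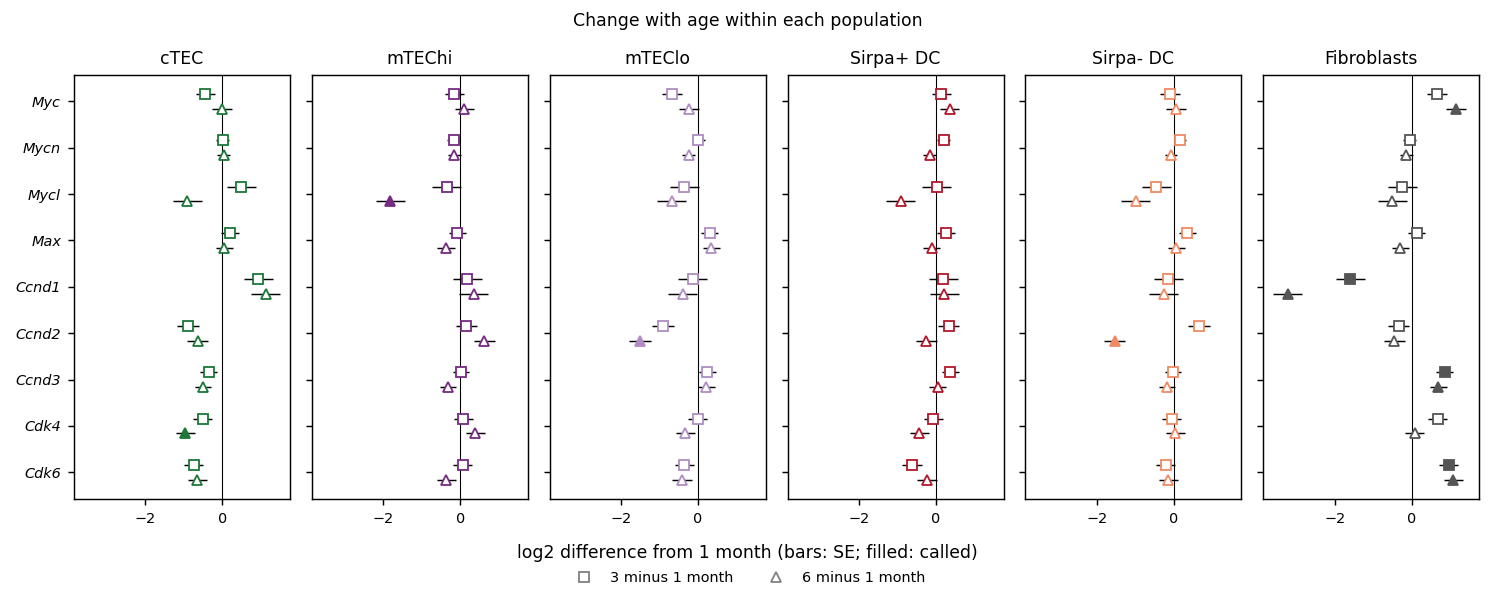
Log2 difference at 3 months (squares) and at 6 months (triangles) from 1 month, for each member in each population (bars, SE; filled points, called at adjusted p under 0.05). The furthest point is Ccnd1 in fibroblasts at 6 months, at -3.23.

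Between 6 and 1 months the calls were 1 of 9 in cTEC (6.45% of all genes), 1 in mTEClo (6.42%), 1 in mTEChi (9.51%), 0 in Sirpa+ DC (2.06%), 1 in Sirpa- DC (0.904%) and 4 in fibroblasts (36.2%). In Sirpa+ DC, where limma called none, 1 member had an unadjusted p under 0.05. The share in fibroblasts is near that of all genes there.

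In the epithelial and dendritic cells, Ccnd2 and Mycl changed at 6 months. Ccnd2 in mTEClo was 11.54 and 11.51 at 1 month, 10.93 and 10.30 at 3 months, and 10.05 and 9.97 at 6 months. Both 6 month arrays were below the other 4. The 6 month difference from 1 month was -1.51 ± 0.28 (log2, SE; limma's adjusted p = 0.000988), which all 50 alternatives called, with adjusted p up to 0.0402, and all 7 Ccnd2 probe sets shared the sign (-1.51 to -0.43). Beside it, the mean of the proliferation markers in mTEClo was 8.82 and 8.95 at 1 month, 8.37 and 7.61 at 3 months, and 7.10 and 7.15 at 6 months, and its part in the change was not tested.

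Ccnd2 in Sirpa- DC was 9.47 and 9.15 at 1 month, 9.86 and 10.07 at 3 months, and 7.92 and 7.62 at 6 months. The 6 month arrays stood below the others, and the 3 month arrays above the 1 month ones. The 6 month difference was -1.54 ± 0.28 (log2, SE; limma's adjusted p = 0.00502), with the same sign in all 7 probe sets (-1.54 to -0.21). The call was lost with the mean of the 7 sets (-0.65, adjusted p = 0.231) and without the first 1 month or the second 6 month array (adjusted p = 0.108 and 0.161). In mTEChi, Ccnd2 went the other way without passing the test, with 11.76 and 11.27 at 1 month, 11.83 and 11.52 at 3 months, and 11.86 and 12.44 at 6 months (0.63, adjusted p = 0.148).

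Mycl in mTEChi was 8.89 and 8.45 at 1 month, 8.74 and 7.91 at 3 months, and 7.08 and 6.63 at 6 months, with both 6 month arrays below the rest. The difference was -1.82 ± 0.38 (log2, SE; limma's adjusted p = 0.00351), and it was lost with the mean of the 3 Mycl probe sets (-0.52, adjusted p = 0.142) and in a fit of the mTEChi arrays alone (adjusted p = 0.0646). The other 2 Mycl sets were below the pooled median in all 36 arrays. In each of the 6 populations the 6 month mean of Mycl was below the 1 month mean, with differences between -0.51 in fibroblasts and -1.82 in mTEChi, and mTEChi was the one that passed the test on its own. In Sirpa- DC, where the level was highest, the values were 11.31 and 11.21 at 1 month, 11.26 and 10.33 at 3 months, and 10.19 and 10.34 at 6 months (-0.99).

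Averaged over the 6 populations, Mycl fell by 0.97 ± 0.15 (log2, SE; limma's adjusted p = 4.06e-05) and Ccnd2 fell by 0.63 ± 0.11 (adjusted p = 0.000164) at 6 months relative to 1 month, 2 of 9 against 36.6% of all genes. At 3 months 0 of 9 were called in this mean, against 6.34%, with 2 at an unadjusted p under 0.05. The Ccnd2 call ended with the mean of its probe sets (-0.10, adjusted p = 0.478), of which 3 of 7 had the opposite sign. Both calls ended with the 3′ minus 5′ difference as a covariate (Mycl -0.60, adjusted p = 0.0573; Ccnd2 -0.39, adjusted p = 0.102). That difference moved with age: in mTEClo it was 2.73 and 2.62 at 1 month, 3.07 and 1.90 at 3 months, and 1.84 and 1.98 at 6 months. Within populations it correlated with Ccnd2 at 0.574 and with Mycl at 0.471, as a description over 36 arrays.

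In cTEC the member called was Cdk4, at 10.71 and 10.42 at 1 month, 10.03 and 10.08 at 3 months, and 9.12 and 10.09 at 6 months. The difference of -0.96 ± 0.25 (log2, SE; limma's adjusted p = 0.0183) rested on 1 low 6 month array. Without it the difference was -0.48 (adjusted p = 0.352), without the first 1 month array adjusted p = 0.217, with the 3′ minus 5′ covariate -0.69 (adjusted p = 0.114), and in a fit of cTEC alone adjusted p = 0.174. The proliferation markers of these arrays were 9.11 and 8.77 at 1 month, 6.94 and 7.25 at 3 months, and 7.50 and 7.78 at 6 months, and their part was not tested. Ccnd1 in cTEC had 7.74 and 8.48 at 1 month, 8.93 and 9.17 at 3 months, and 9.56 and 8.90 at 6 months, with the 1 month arrays lowest (6 month difference 1.13, adjusted p = 0.0728, and 0.0166 without the fibroblast arrays in the fit).

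The largest change with age of any member was that of Ccnd1 in fibroblasts. Ccnd1 was 10.29 and 9.82 at 1 month, 8.70 and 8.20 at 3 months, and 7.65 and 6.00 at 6 months, so that no 2 ages overlapped. It fell by 1.61 ± 0.38 at 3 months (log2, SE; limma's adjusted p = 0.00344) and by 3.23 ± 0.38 at 6 months (adjusted p = 1.38e-06), and its 3 probe sets gave -3.28 to -1.83 at 6 months. The mean of the 4 fibroblast markers moved alongside, with 13.39 and 13.05 at 1 month, 12.45 and 11.77 at 3 months, and 12.04 and 9.83 at 6 months. The thymocyte mean was 8.97 and 10.48 at 1 month, 10.54 and 10.49 at 3 months, and 10.87 and 11.20 at 6 months, and the part of either in the fall was not tested. Without the first 1 month array or the second 3 month array the 3 month call was lost (adjusted p = 0.0704 and 0.0737).

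Cdk6 in fibroblasts was 10.51 and 10.46 at 1 month, 11.58 and 11.31 at 3 months, and 11.36 and 11.77 at 6 months, with both older ages above the youngest. It rose by 0.96 ± 0.25 at 3 months (log2, SE; limma's adjusted p = 0.00795) and by 1.08 ± 0.25 at 6 months (adjusted p = 0.00171). Without the first 1 month or the first 3 month array the 3 month adjusted p was 0.0553 or 0.0729, and without the second 6 month array the 6 month one was 0.0524. Myc, which rose at 6 months by 1.15 ± 0.25 (SE, adjusted p = 0.00104), was 8.71 and 8.53 at 1 month, 9.52 and 9.02 at 3 months, and 9.78 and 9.75 at 6 months, with no overlap of the ages. In a fit of the fibroblast arrays alone the 6 month adjusted p was 0.102 for each of Ccnd1, Cdk6 and Myc. Beside these changes, the thymocyte mean of the fibroblast arrays averaged 9.73 at 1 month, 10.51 at 3 months and 11.03 at 6 months. Its part in the rises of Cdk6 and Myc was not tested.

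Ccnd3 in fibroblasts was 9.36 and 10.24 at 1 month, 10.73 and 10.57 at 3 months, and 10.43 and 10.55 at 6 months. The first 1 month array stood apart and had the lowest thymocyte mean of the 6. Ccnd3 rose by 0.85 ± 0.22 at 3 months (log2, SE; limma's adjusted p = 0.00653) and by 0.69 ± 0.22 at 6 months (adjusted p = 0.0153). Without that array the differences were 0.41 (adjusted p = 0.299) and 0.25 (adjusted p = 0.497). At 3 months the other 2 Ccnd3 probe sets had the opposite sign, and with the mean of all sets the difference was 0.09 (adjusted p = 0.817) at 3 months and 0.32 (adjusted p = 0.184) at 6 months. The 3 month call was also lost without the first 3 month array (adjusted p = 0.0524), and the 6 month one without the second 6 month array (adjusted p = 0.117). The 6 month difference was 0.40 with the thymocyte covariate (adjusted p = 0.319) and 0.55 with the 3′ minus 5′ covariate (adjusted p = 0.175). In a fit of the fibroblast arrays alone the adjusted p was 0.145 at 3 months and 0.234 at 6 months.

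Whether the change with age differed between the populations was tested by an F-test of age by population in limma. It called Ccnd1 (adjusted p = 0.000724), Ccnd2 (0.000439) and Cdk6 (0.0168), 3 of 9 against 15.7% of all genes. Without the 6 fibroblast arrays Ccnd2 remained (adjusted p = 0.00074), while Ccnd1 had 0.262 and Cdk6 0.656. At an unadjusted p under 0.05 the F-test with all arrays had 6 members. The age by population term took 21.4% of the sum of squares of Ccnd1, 18.6% of that of Ccnd2 and 10% of that of Cdk6. Its largest share was 23.2% for Cdk4, which the F-test did not call (adjusted p = 0.0907). The 6 month change of epithelium did not differ from that of dendritic cells for any member in limma (0 of 9 against 1.91% of all genes, and 0 at an unadjusted p under 0.05).

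Around the members, Cdkn1c and Cdkn2b were higher in mTEChi, and no growth target of MYC was called at 2-fold between populations. Of 20 growth targets of MYC, such as the nucleolar proteins Ncl and Npm1, limma called 0 at 2-fold in all 10 population comparisons. These comparisons called 5.37% to 24.5% of all genes. Differences under 2-fold are not covered by this count. Of 6 INK4 and CIP/KIP inhibitors tested, 2 were higher and 1 lower in mTEChi than in the other 5 populations, a comparison that called 19.2% of all genes. Cdkn1c, the CIP/KIP inhibitor p57, averaged 11.03 ± 0.47 in mTEChi, 9.64 ± 0.60 in mTEClo, 8.77 ± 0.56 in cTEC, 8.58 ± 1.03 in fibroblasts, 6.61 ± 0.30 in Sirpa+ DC and 6.59 ± 0.10 in Sirpa- DC (SD, n = 6 each). The mTEChi difference was 2.99 ± 0.15 (log2, SE; adjusted p = 3.61e-15), and epithelium exceeded dendritic cells by 3.21 ± 0.12 (adjusted p = 8.04e-18). Cdkn2b, the INK4 inhibitor p15, averaged 9.86 ± 0.17 in mTEChi and 7.79 ± 0.39 in mTEClo, and exceeded the other 5 by 2.65 ± 0.14 in mTEChi (adjusted p = 9.2e-15). Cdkn2d, the INK4 inhibitor p19, differed there by -1.34 ± 0.15.

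Of 9 further genes of the MYC and MAX network, 1 was higher and 1 lower in mTEChi, a share near the 19.2% of all genes called there. Mxd1, a repressor that competes for MAX, averaged 10.79 ± 0.52 in mTEChi, 10.51 ± 0.25 in Sirpa- DC and 10.34 ± 0.10 in Sirpa+ DC, against 8.94 ± 0.35 in mTEClo, 8.34 ± 0.21 in fibroblasts and 8.02 ± 0.54 in cTEC (SD, n = 6 each). Its difference from the other 5 was 1.56 ± 0.12 in mTEChi and -1.77 ± 0.12 in cTEC (log2, SE; limma's adjusted p = 1.6e-11 and 2.4e-12). Mxd4, of the same family, was highest in fibroblasts (10.54 ± 0.48) and cTEC (10.32 ± 0.25) and lowest in Sirpa- DC (8.40 ± 0.12), so that the 2 repressors were ordered nearly in reverse. Fbxo4, the F-box protein known for directing the breakdown of cyclin D1, had a mean of 6.34 ± 0.30 for Sirpa+ DC and 8.28 ± 0.18 for Sirpa- DC. Its difference of -1.94 ± 0.16 (SE, adjusted p = 1.31e-09) was the only call between these populations among the pathway lists.

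Downstream of the kinases, cTEC had lower levels of 3 of 11 pocket protein and E2F genes, E2f7 (-1.50 ± 0.14), E2f1 (-1.30 ± 0.11) and E2f2 (-1.14 ± 0.11; log2, SE), and of 5 of 7 later cyclins and CDKs, where 6.37% of all genes were lower. The median of the later cyclin list was -1.18 in cTEC, where that of all genes was -0.07. In Sirpa- DC 3 of 7 later cyclins and CDKs and 3 of 11 E2F and pocket genes were higher, with a list median of 0.84 for the later cyclins against -0.03 for all genes, of which 6.20% were higher. In mTEChi 0 of 7 later cyclins and 0 of 12 proliferation markers were called by limma against the other 5, but against mTEClo 3 of 7 and 9 of 12 were higher in mTEChi. Of all genes, 19.2% were called in the first of these comparisons and 11.8% were higher in the other. All of these comparisons average the ages. At 1 month the mean of the proliferation markers was 8.94 in cTEC, 8.89 in mTEClo and 8.82 in mTEChi. In the same order it was 7.10, 7.99 and 8.94 at 3 months, and 7.64, 7.13 and 8.94 at 6 months. Differences between these populations at single ages were not tested.

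With age, later cyclins and CDKs, which act downstream of the D cyclin kinases, fell in cTEC and mTEClo and rose in fibroblasts. In cTEC 6 of 7 later cyclins and CDKs fell at 3 months and 6 of 7 at 6 months, with medians of -2.04 and -1.39, against -0.08 and -0.07 over all genes, of which 3.88% and 3.74% fell. Beside this, the thymocyte mean in cTEC was 8.83 and 8.40 at 1 month, 6.74 and 7.66 at 3 months, and 7.80 and 8.44 at 6 months, and the 3′ minus 5′ difference was 2.63 and 2.43 at 1 month, 2.04 and 1.94 at 3 months, and 1.96 and 2.04 at 6 months. Their part in the fall was not tested. In mTEClo 6 of 7 fell at 6 months (median -1.57, against -0.09, and 3.87% of all genes), and none rose. In fibroblasts 7 of 7 rose at 3 months (median 1.47, against -0.02) and 4 of 7 at 6 months, where 10.1% and 15.8% of all genes rose, beside the thymocyte markers given above. The cell cycle inhibitor Cdkn1b rose in fibroblasts at 6 months by 1.75 ± 0.30 (log2, SE; limma's adjusted p = 0.000103).

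Of the 20 MYC growth targets, 7 rose and 0 fell in mTEChi at 6 months, with a median of 0.42 against 0.03 over all genes, of which 6.17% rose. Nolc1 rose by 1.72 ± 0.28 (log2, SE; limma's adjusted p = 0.000462), Pa2g4 by 1.14 ± 0.23 (0.00298), Npm1 by 1.02 ± 0.17 (0.000508) and Nop56 by 1.00 ± 0.24 (0.00934), all of them nucleolar or ribosome-assembly proteins. In mTEClo 0 of 20 rose and 2 fell, the chaperonin Hspd1 (-0.91) and the spermidine synthase Srm (-0.78). The difference between mTEChi and mTEClo in this respect was not tested. The rise was not particular to mTEChi. At 6 months limma also called Pa2g4 (1.11), Nop56 (1.09) and Npm1 (1.02) higher in fibroblasts, where 15.8% of all genes rose. Npm1 rose in Sirpa- DC (0.74) and Sirpa+ DC (0.79). In the mean of 6 populations Nolc1 (0.82), Npm1 (0.64), Pa2g4 (0.53) and Nop56 (0.46) rose, where 36.6% of all genes were called. In fibroblasts 12 of 20 rose at 3 months (median 0.71), led by Fbl at 1.36 ± 0.19, the methyltransferase of ribosomal RNA, where 10.1% of all genes rose.

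The genes whose 18 group means ran closest to each member are given with Pearson's r over those 18 means, with no statement on shared control. For Mycl they were Mab21l3 (0.94), Gramd3 (0.91) and Emd (0.90), and for Ccnd1 Litaf (0.94), Lmo2 (0.93) and Specc1 (0.91). Ccnd2 had no neighbour above 0.88, with Mfhas1 (0.88), Ppdpf (0.87) and Dennd11 (0.84). Ccnd3 had Utp23, Aff3 and Itpkb at 0.95 each, and Cdk6 had Cdan1 (0.97), Dgke (0.96) and Coil (0.95). For Myc they were Tnrc6b (0.93), Trp53inp1 (0.93) and Il17rb (0.91), for Max Gpat4 (0.95), Fam117b (0.94) and 9430038I01Rik (0.94), for Mycn Nat8f4 (0.93), Zfp444 (0.92) and Tmem89 (0.92), and for Cdk4 Klhl23 (0.91), Ctps (0.90) and Elp3 (0.84). Among the members themselves, Myc ran against Ccnd1 at -0.872 and against Mycl at -0.841.

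**Figure D5:**
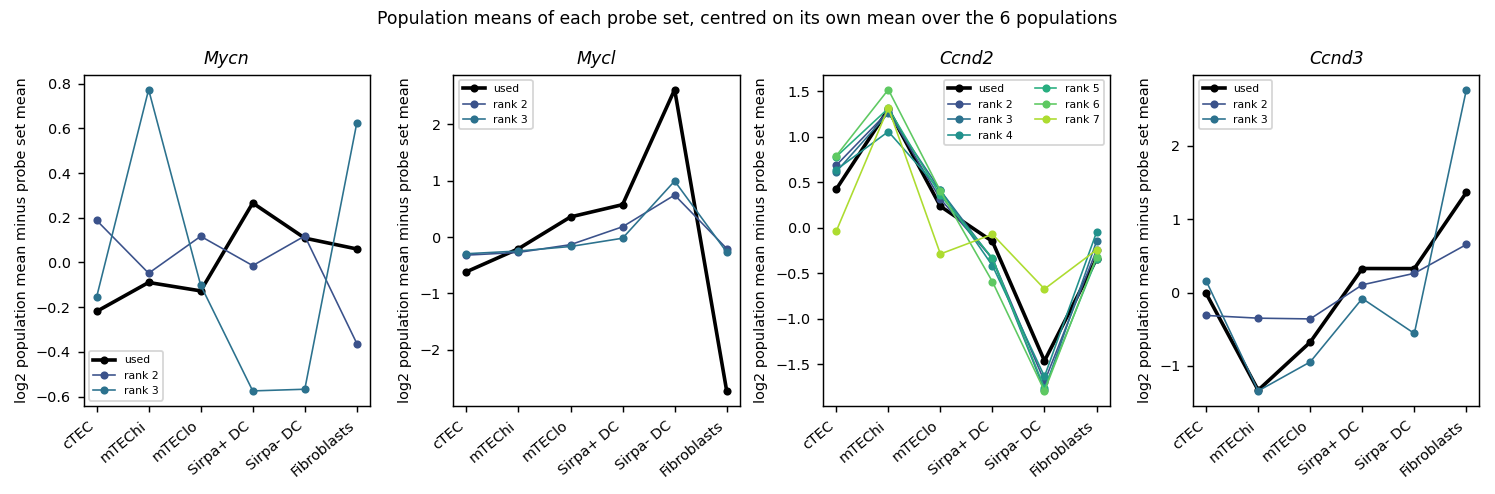
Population means of every probe set of Mycn (3), Mycl (3), Ccnd2 (7) and Ccnd3 (3), each centred on its own mean over the 6 populations (log2). The 7 Ccnd2 sets all peak in mTEChi, whereas the 3 Mycn sets run in different orders.

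The probe sets of a member were compared where it had several. Every call between populations had the same sign in all probe sets of that gene, for example 0.79 to 3.32 for Ccnd3 and -1.91 to -1.33 for Ccnd1 in fibroblasts against the other 5. The other 2 sets correlated with the chosen one over the 18 group means at 0.988 and 0.86 for Ccnd1, 0.973 and 0.961 for Cdk4, 0.953 and 0.691 for Cdk6, and 0.782 and 0.845 for Ccnd3. The 6 other Ccnd2 sets correlated at 0.798 to 0.968. Myc and Max had 1 probe set each and so no such check.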

How the data were processed

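RNA of 36 sorted samples was amplified, biotin-labelled and hybridised to Affymetrix mouse arrays, per the labels' protocols. The deposited values are log2 levels of 45101 probe sets, normalised in Gene Expression Commons per the series' design text. GCRMA is named in the submitters' processing notes, with no version. The log base was read from the values, and arrays give no counts, so the number of arrays limits the precision.

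Of the probe sets, 64 are controls, 34945 carry 1 gene symbol, 932 several and 9160 none. A gene with several probe sets was read from the brightest, and genes above the pooled median (log2 5.66) in fewer than 2 arrays were left out. limma 3.58.1 (R 4.3.3) was fitted with 1 mean for each of 18 groups, an intensity trend and 18 residual degrees of freedom, and p-values were adjusted over 14495 genes. Ages were weighted equally in population comparisons. The scripts were tested on simulated data. Tables and plots were made with Python 3.11.15, pandas 2.3.3 and matplotlib 3.10.9.

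Named genes were the 9 members, the 3 genes with the highest Pearson r to each, and up to 4 called genes of each pathway list per comparison. A few levels of pathway genes are shown beside these. The members, lists and tests were chosen with earlier results of these data known. Alternatives were quantile normalization, equal array medians, other probe set rules and filters, covariates, thresholds, fits of the compared groups alone, a replicate block and leaving out each array.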

Additional observations from a re-analysis of the deposited data

Results flagged for a closer look

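In each of 54 sets of 6 arrays (9 genes in 6 populations), the array furthest from its neighbour was compared with Dixon's critical value of 0.625. Chance picks about 1 set in 20, and each set mixes 3 ages. It picked 3 arrays. Ccnd1 in the first 1 month Sirpa- DC array was 11.21, where the nearest of the other 5 was 10.89. Ccnd3 in the second 6 month mTEChi array was 7.14, where the nearest was 7.65. Ccnd3 in the first 1 month fibroblast array was 9.36, where the nearest was 10.24.

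The change with age differed between populations in limma's F-test for Ccnd1 (adjusted p = 0.000724), Ccnd2 (adjusted p = 0.000439) and Cdk6 (adjusted p = 0.0168).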

How the results depend on the processing

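No result changed direction under any alternative, and among the called members 1441 alternative values kept their call and 63 lost it. Counts below are members called of 9, or of 54 gene and population pairs where summed over populations. Quantile normalization gave 1 for cTEC against both mTEC populations (reported value 0), 5 for 3 against 1 months summed (3) and 4 for the mean of 6 populations at 6 months (2). Equal array medians gave 1 for cTEC against mTEC. With the thymocyte covariate fibroblasts kept 1 of 4 calls, and the SEs of the lost ones were larger. With the 3′ minus 5′ covariate the counts were 1 for cTEC against mTEC, 5 at 3 months summed, 1 for the mean of 6 populations at 6 months and 5 for the F-test (3). At 4-fold between populations and 2-fold between ages, cTEC, mTEChi and Sirpa+ DC had 0 (1, 3 and 1), Sirpa- DC 1 (3), fibroblasts 2 (4), mTEChi against mTEClo 0 (1), Sirpa+ against Sirpa- DC 1 (2), epithelium against dendritic cells 0 (3), 3 months summed 1 (3) and the mean at 6 months 0 (2). Fits of the compared groups alone gave 5 at 6 months summed (8). Without the 6 fibroblast arrays, chosen after seeing the data, cTEC had 2 calls, Mycl (-1.45) joining Ccnd1, and the F-test 1.

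Leaving out 1 array at a time gave, in 36 fits, 2 to 3 calls for mTEChi, 4 to 5 for fibroblasts, 0 to 1 for mTEChi against mTEClo, 0 to 2 for cTEC against mTEC, 3 to 4 for epithelium against dendritic cells, 7 to 9 for 6 months summed, 0 to 1 for the mean at 3 months, 2 to 4 for the mean at 6 months (4 without the first 6 month cTEC array) and 2 to 5 for the F-test (5 without the first 3 month mTEClo array). For 3 months summed the range was 0 to 8: 0 without the first 1 month fibroblast array, 1 without the first 3 month one, 8 and 6 without the first and the second 3 month mTEClo array, and 5 without either 6 month mTEChi array. The cause of these changes was not tested.

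Deviations of same-numbered arrays correlated above 0.1 in 17 of 45 pairs (median 0.0862), in 4 of 15 at 1 month, 10 of 15 at 3 months (up to 0.418) and 3 of 15 at 6 months. Since not every pair did, the numbers were not taken as pairing the arrays, and shared animals remain possible. With the replicate block (consensus correlation 0.056) all 16 counts equalled the reported ones, for example 3 at 3 months summed, 8 at 6 months summed and 4 in fibroblasts. The 2 arrays per group limit the age comparisons.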
